A study of Mus musculus with 4 samples.

Results

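Proteins that copy DNA and proteins that divide the cell are made from genes that switch on and off with the cell cycle. Described here are 40 such genes, taken by symbol from the 17915 genes of the deposited table: 18 of DNA replication and its G1/S control, 19 of mitosis, and the 3 D-type cyclins. All 40 were found and all 40 passed the filter on low counts. The study compared 2 kinds of lung endothelial cell from mice of genotype Cdh5-CreER;aSMA-LSL-Dre;NR1, given tamoxifen 5 times and subjected to TAC for 6 weeks, a surgical narrowing of the aortic arch (transverse aortic constriction) that loads the heart. Cdh5-CreER drives the recombinase in endothelium, and ZsGreen marks endothelial cells. tdTomato marks those in which the alpha smooth muscle actin locus has been active since the recombinase acted, so the red mark outlasts that activity. Bulk RNA sequencing gave 2 tdTomato+ and 2 ZsGreen+ libraries, labelled biological replicates 1 and 2 of each colour. All 4 libraries share genotype, tamoxifen and TAC, and no group without TAC is analysed here. The labels do not tie libraries to animals, neither within a colour nor between same-numbered libraries, and p-values therefore cover the spread between these libraries alone, which may be technical.

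In resting endothelium most cells sit outside the cycle. Growth signals raise D-type cyclins, which with their kinases inactivate the retinoblastoma protein and free E2F factors. E2F targets include cyclin E, the MCM helicase that is loaded onto replication origins, and enzymes that make nucleotides. Mitotic genes come on later, through the B-MYB, FOXM1 and DREAM/MuvB complexes, which read a promoter element called the cell cycle genes homology region (CHR), often next to CCAAT boxes bound by NF-Y.

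That division can be read in the promoters. RefSeq windows of GRCm38.p6 that run from 250 bases before to 50 bases after a start site were found for 31 of the 40 genes, in 34 windows. An E2F word (TTTCCCGC, TTTCGCGC, TTTGCCGC or TTTGGCGC, on either strand) lay in 6 of 15 replication windows (40%), 1 of 17 mitosis windows (5.88%) and 2.26% of all 32851 windows. The CHR word TTTGAA, on either strand, lay in 1 of 15 replication windows (6.67%), 13 of 17 mitosis windows (76.5%) and 17.9% of all windows. CCAAT, on either strand, lay in 10 of 15 (66.7%), 16 of 17 (94.1%) and 37.4%. No word of one kind contains a word of another, although their ends can overlap, and a match is a run of letters only, not evidence of binding.

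The following 100-base stretches lie wholly before the annotated gene spans. They are shown as examples of windows that hold these words, and 9 of the 15 replication windows hold no E2F word. Cdk1 is also the one mitosis gene whose 300-base window holds an E2F word. Capitals mark E2F words in the first 2 and CHR words in the other 3. The Mcm5 stretch is chr8:75109314-75109413, plus strand, and its capitals are a pair of E2F words on opposite strands that overlap. Mcm6 is chr1:128359706-128359805, Mki67 chr7:135716451-135716550, Cdk1 chr10:69352913-69353012 and Top2a chr11:99024200-99024299, all on the minus strand, with the CHR word of Top2a on the opposite strand to its gene.
Mcm5: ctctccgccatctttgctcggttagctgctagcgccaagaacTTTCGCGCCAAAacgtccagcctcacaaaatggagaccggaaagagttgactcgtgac
Mcm6: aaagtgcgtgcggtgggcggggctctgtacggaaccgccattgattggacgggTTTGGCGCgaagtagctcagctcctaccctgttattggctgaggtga
Mki67: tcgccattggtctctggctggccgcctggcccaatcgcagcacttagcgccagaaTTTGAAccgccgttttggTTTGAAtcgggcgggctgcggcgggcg
Cdk1: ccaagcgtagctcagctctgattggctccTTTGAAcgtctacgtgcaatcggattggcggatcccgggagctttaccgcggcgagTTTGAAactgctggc
Top2a: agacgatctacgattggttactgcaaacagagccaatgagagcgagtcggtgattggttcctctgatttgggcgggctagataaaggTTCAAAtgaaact

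Total counts ran from 17050673 to 18574737 per library, with 14969 to 15747 genes detected. Acta2, the recorded gene, stood at 281 and 450 TPM, a length-normalized abundance, in tdTomato+ replicates 1 and 2 and at 62.1 and 70.6 TPM in ZsGreen+ replicates 1 and 2 (edgeR log2 fold change 2.29, SE 0.29, adjusted p = 0.0432). The 10 endothelial markers, among them Pecam1 and Cdh5, summed to between 7722 and 8682 TPM in every library.

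The D-type cyclins Ccnd3 and Ccnd1, with the sliding clamp Pcna, were the 3 most abundant of the 40 genes in every library, and the median mitosis gene lay below the median replication gene in each. TPM is a level per transcript length and is used for levels between genes. The median level of the replication genes was 16.5 and 28.3 TPM in tdTomato+ replicates 1 and 2 and 10.6 and 23.1 TPM in ZsGreen+ replicates 1 and 2. For mitosis genes it was 8.26, 11.7, 4.68 and 9.36 TPM in the same order, and this order of libraries is used for all values that follow. Over all genes tested the median level was 13.7, 13, 10.4 and 12.7 TPM. Both groups were thus lowest in ZsGreen+ replicate 1 and highest in tdTomato+ replicate 2, with the replicate 2 libraries above the replicate 1 libraries. The median over all genes was also lowest in ZsGreen+ replicate 1, so that low point in TPM is not particular to these groups, but it was highest in tdTomato+ replicate 1.

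**Figure D1:**
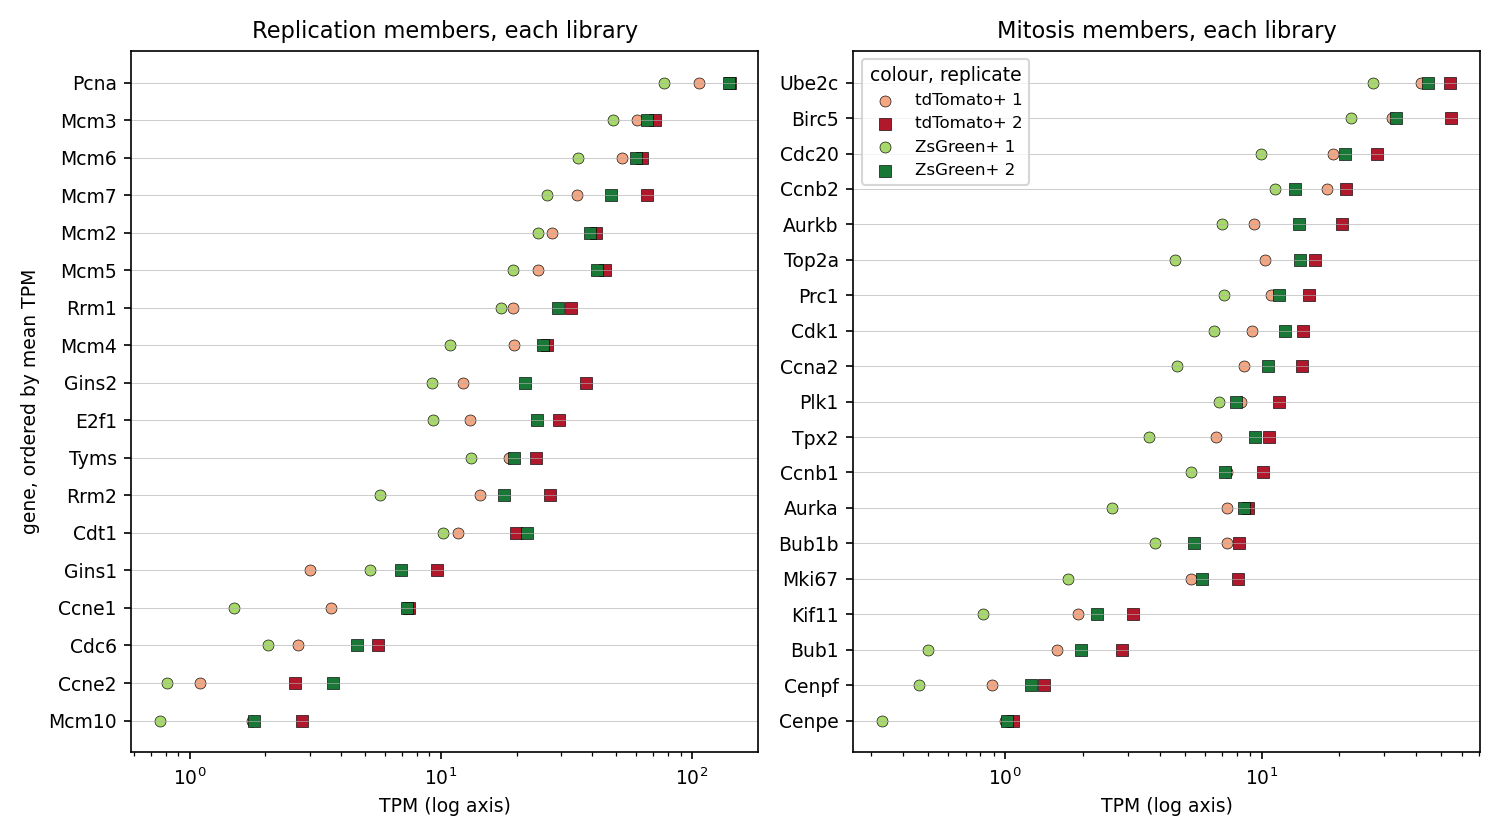
Level of each replication gene (left) and mitosis gene (right) in each of the 4 libraries, in TPM on a log axis; circles are replicate 1, squares replicate 2, red tones tdTomato+ and green tones ZsGreen+. Squares lie to the right of circles for all 18 replication genes, and ZsGreen+ replicate 1 is the leftmost point for most genes.

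Summed over the 18 replication genes the level was 428, 653, 317 and 580 TPM. Over the 19 mitosis genes it was 207, 305, 127 and 226 TPM. In summed TPM replicate 2 exceeded replicate 1 by 1.53-fold for replication and 1.48-fold for mitosis in tdTomato+ cells, and by 1.83-fold and 1.78-fold in ZsGreen+ cells. The larger rise in ZsGreen+ cells depended on the scale for replication genes. On counts scaled by library size with TMM factors, their median log2 rise was 0.895 in tdTomato+ and 0.865 in ZsGreen+ cells. For mitosis genes it was 0.66 and 0.83. Between colours the mean for replication was 540 ± 160 TPM in tdTomato+ and 448 ± 186 TPM in ZsGreen+ cells (SD, n = 2 each), and for mitosis 256 ± 69.8 and 176 ± 70.1 TPM. For both groups the difference between colours was smaller than the difference between replicates of a colour. In bulk RNA a larger number of cycling cells and more RNA per cycling cell cannot be told apart.

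**Figure D2:**
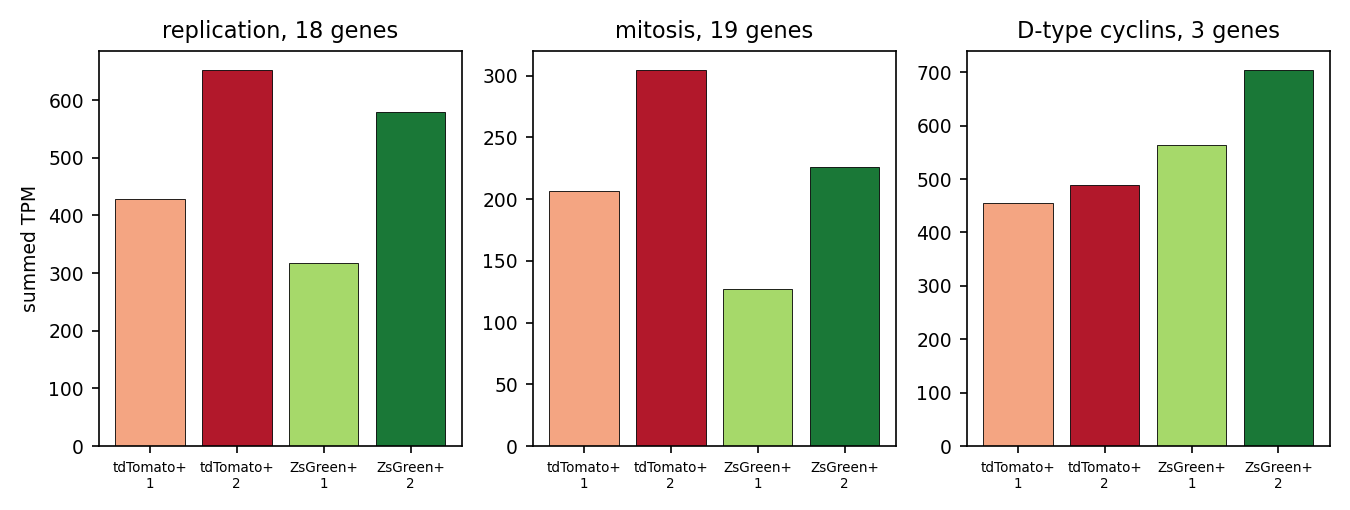
Summed TPM of the replication genes, the mitosis genes and the D-type cyclins in each library; bars start at 0, each bar is 1 library and each panel has its own scale. Replication sums are 653 and 580 TPM in the replicate 2 libraries against 428 and 317 TPM in the replicate 1 libraries, while D-type cyclin sums are higher in both ZsGreen+ libraries (564 and 705 TPM) than in both tdTomato+ libraries (455 and 488 TPM).

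No cell cycle gene passed edgeR's test between colours in the model that holds colour alone. Of the 40 genes 0 were called higher and 0 lower in tdTomato+ cells at an adjusted p under 0.05, beside 0.167% and 0.137% of the 13177 genes tested (0.304% in either direction). At an unadjusted p under 0.05 there was 1, Ccnd1, beside 8.77% of all genes. DESeq2 called Ccnd1 lower, among 330 genes of all, and limma-voom called none of the 40, beside 33 genes of all. Fitted log2 fold changes (tdTomato+ over ZsGreen+) were above 0 for 19 of 19 mitosis genes, with a median of 0.43, for 14 of 18 replication genes, with a median of 0.19, and for 1 of 3 D-type cyclins, against 49.3% of all genes and a median of -0.01. The count above 0 moved in both directions when 1 library was left out. Of the 40 genes it was 34 with all libraries, 19 without tdTomato+ replicate 2 and 18 without ZsGreen+ replicate 1. It was 38 without tdTomato+ replicate 1 and 38 without ZsGreen+ replicate 2. Leaving out 1 library makes the colours uneven in replicate number, so the difference between numbers enters the colour value. In that order of omissions the replication median was -0.37, -0.18, 0.47 and 0.63, and the mitosis median 0.07, 0.11, 0.68 and 0.97.

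Within the same replicate number, mitosis genes stood higher in tdTomato+ cells in nearly every case. On the scale of CPM (counts per library size, with sizes scaled by TMM factors) 18 of 19 were above ZsGreen+ within both numbers, 12 of 18 replication genes and 1 of 3 D-type cyclins were, and so were 29.8% of all genes tested. In TPM 19 of 19, 15 of 18 and 1 of 3 were, against 40.4%. Within replicate 2 alone all 19 mitosis genes and 16 of 18 replication genes were higher in tdTomato+ cells in CPM, against 50.2%. The median log2 difference for mitosis genes was 0.62 within replicate 1 and 0.43 within replicate 2. The colour ratio was larger within replicate 1 than within replicate 2 for 11 of 19 mitosis genes and 8 of 18 replication genes, against 48% of all genes. Between-number overlap was nonetheless the rule: both tdTomato+ libraries lay above both ZsGreen+ libraries in CPM for 2 of the 40 genes, Ccnb2 and Bub1b, against 19.9% of all genes, and both lay below for Ccnd1 and Ccnd3, against 18.2%. In TPM that last pattern held for Ccnd1 alone, against 8.17% of all genes. The deposited TPM set the tdTomato+ libraries higher in general: on log2(TPM + 1) the median over all genes was 0.12, and 4 of 40 genes (Ccnb1, Ccnb2, Bub1b and Plk1) lay above without overlap, against 28.8%.

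Markers of other cell types differed between the libraries of the 2 colours too. The 12 macrophage markers summed to 9600 and 4342 TPM in tdTomato+ and 4341 and 1069 TPM in ZsGreen+ cells, and 10 of 12 stood higher in tdTomato+ within both numbers, as most mitosis genes did, with 0 called by edgeR. The 9 alveolar type 2 markers summed to 841 and 915 against 438 and 252 TPM, with 7 above without overlap, and the 10 fibroblast markers to 152 and 222 against 70.7 and 66.5 TPM, with 6. The 9 neutrophil and monocyte markers summed to 181 and 311 against 123 and 247 TPM. Of 8 tested, 6 lay above without overlap in CPM and 7 were higher within both numbers, with 0 called by edgeR. That list's median was 0.97 on the log2 scale, and Ly6c2 went the other way at -0.85. Sums of T and NK cell markers (19.5 and 10.7 against 16.7 and 9.13 TPM) and of B cell markers (18.1 and 6.12 against 15.4 and 2.05 TPM) were also higher in tdTomato+ within each number. In CPM, though, 1 of 4 tested markers of each list was higher within both numbers, against 29.8% of all genes. Both list medians were 0.11 on the log2 scale. In the opposite direction, edgeR called 3 of 7 lymphatic endothelial markers (Mmrn1, Reln and Thy1) lower in tdTomato+ cells. The list's median was -2.03 on the log2 scale, and 6 of 7 lay below without overlap in CPM. Lyve1, the most abundant, was higher in tdTomato+ within both numbers (338 and 537 against 221 and 380 TPM). The list summed to 415 and 593 against 408 and 637 TPM. The 8 markers of aCap, a type of lung capillary cell, summed lower in tdTomato+ cells, to 162 and 176 against 240 and 309 TPM. In CPM 6 of the 8 lay below without overlap, with a list median of -1.01. EdgeR called 1 of them lower, Prx (log2 fold change -1.74, SE 0.20, edgeR adjusted p = 0.0304). Of 8 markers of gCap, another capillary type, 4 lay below without overlap, with a median of -0.41 and 0 called. The 10 endothelial markers had 0 called and a median of -0.16. None of these lists had a marker at 0 in every library, and their part in the differences of the cell cycle genes was not tested.

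Ccnb2, a B-type cyclin that activates Cdk1 at mitotic entry, stood at 17.9 and 21.2 TPM in tdTomato+ cells and at 11.2 and 13.4 TPM in ZsGreen+ cells. The colours did not overlap and replicates lay close together, with a log2 fold change of 0.52 (SE 0.26, edgeR adjusted p = 0.668). Bub1b encodes BubR1, a spindle checkpoint kinase that holds back anaphase. Its level was 7.28 and 8.13 TPM against 3.83 and 5.42 TPM, with a log2 fold change of 0.60 (SE 0.26, edgeR adjusted p = 0.587). Plk1, the kinase that drives centrosome maturation, stood at 8.26 and 11.7 TPM against 6.8 and 7.96 TPM, without overlap in TPM but with overlap in CPM (edgeR adjusted p = 0.888).

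The proliferation marker Mki67 read 5.3 and 8.1 TPM in tdTomato+ cells and 1.75 and 5.85 TPM in ZsGreen+ cells. The low value of ZsGreen+ replicate 1 stands apart, and tdTomato+ replicate 1 lies below ZsGreen+ replicate 2. Its log2 fold change between colours was 0.74 (SE 0.48, edgeR adjusted p = 0.783), the TPM ratio of the colours being 3.03 within replicate 1 and 1.38 within replicate 2. Bub1, the partner checkpoint kinase, read 1.59, 2.84, 0.5 and 1.97 TPM, with ratios of 3.18 and 1.44. Cenpe, a kinetochore motor, read 1, 1.07, 0.33 and 1.02 TPM, so that 3 libraries were alike and ZsGreen+ replicate 1 was low. Aurka, the spindle pole kinase, had the same form at 7.28, 8.79, 2.61 and 8.54 TPM.

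Ccnd1 was the member with the smallest p between colours, and its direction was opposite to that of the mitotic genes. Ccnd1 encodes cyclin D1, which is induced by mitogens. It stood at 192 and 160 TPM in tdTomato+ cells and at 261 and 335 TPM in ZsGreen+ cells, with no overlap. Its fitted change was -0.90 on the log2 scale (SE 0.19, edgeR adjusted p = 0.172), and -1.01 to -0.79 when 1 library was left out. The adjusted p was 0.000307 with DESeq2 and 0.149 with limma-voom. DESeq2 called 330 genes of all between colours, where edgeR called 40. Between replicate numbers Ccnd1 had a log2 fold change of -0.03 (SE 0.23, edgeR adjusted p = 0.984), the smallest of the 40.

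Ccnd3, the cyclin D of many blood lineages, stood at 240, 295, 285 and 342 TPM. The colours overlapped in TPM but not in CPM, with a fitted log2 difference of -0.36 (SE 0.20, edgeR adjusted p = 0.734). Ccnd2 was far less abundant, at 22.8, 32.1, 17.6 and 27.6 TPM, with a log2 fold change between colours of 0.16 (SE 0.25, edgeR adjusted p = 0.935). The ratio of Ccnd1 to Ccnd2 in TPM was 8.42 and 4.98 in tdTomato+ cells and 14.9 and 12.1 in ZsGreen+ cells. Ccnd3 spans 47505051 to 47599689 of chromosome 17 (GRCm38). All 3 spans overlap other genes (LTO1 for Ccnd1, Bysl among them for Ccnd3), and whether counting used strand is not stated in the labels or headers, so reads of such pairs may be shared.

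A second axis ran between the replicate numbers. Of the 40 genes 38 were higher in replicate 2 than in replicate 1 within both colours in CPM, against 27.9% of all genes tested; the exceptions were Ccnd1 and Plk1, and in TPM it was Ccnd1 alone. Both replicate 2 libraries lay above both replicate 1 libraries for 18 of 18 replication genes, 16 of 19 mitosis genes and 1 of 3 D-type cyclins, against 18.4% of all genes. In a model of colour and replicate number together, edgeR called 16 of the 40 genes higher in replicate 2 and 0 lower, beside 2.5% and 2.75% of all genes tested (5.24% in either direction). DESeq2 called 7 higher and limma-voom 15, beside 148 and 316 genes of all. By group the 16 edgeR calls were 11 of 18 replication genes, 5 of 19 mitosis genes and 0 of 3 D-type cyclins. The median log2 fold change (replicate 2 over 1) was 0.87, 0.74 and 0.21 for these groups and -0.01 over all genes, and 39 of 40 were above 0, against 49.1%.

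That test had 1 residual degree of freedom, and edgeR took the spread wholly from the trend over all genes, so a gene's own scatter had no weight. With replicate number alone in the model, 0 of the 40 were called (22 at an unadjusted p under 0.05 and all 40 above 0), and without 1 library and with number alone 0 to 4 were, with 38 or 39 above 0. With DESeq2 the calls of Mcm4, Cdc6, Cdt1, Rrm1, Ccne1, Ccne2, Ccna2, Aurkb and Tpx2 were lost. What a replicate number stands for (mouse, day or sort) is not in the labels.

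Between replicate numbers 9 of the 12 macrophage markers were called lower in replicate 2 by edgeR and 1, Marco, higher. Their sums of 4342 and 1069 TPM in replicate 2 compare with 9600 and 4341 TPM in replicate 1, the opposite order to the replication genes. T and NK cell and B cell markers were likewise lower in replicate 2 within each colour, with 1 and 2 genes called. Of the 10 fibroblast markers 3 (Col1a1, Col1a2 and Col3a1) were called higher in replicate 2. Both replicate 2 libraries lay above both replicate 1 libraries for 2 of 10, unlike the replication genes. Dcn, Pi16, Inmt and Col14a1 had log2 fold changes of -0.26, -0.42, -0.27 and -0.17. The list's sum rose from 152 to 222 TPM in tdTomato+ cells and fell from 70.7 to 66.5 TPM in ZsGreen+ cells. Of 8 neutrophil and monocyte markers tested, edgeR called 1 higher, Ly6c2 (11.8, 101, 16.2 and 184 TPM), while the list's median was -0.40 on the log2 scale. The 8 alveolar type 1 and airway markers had a median of 1.24, and 5 had both replicate 2 libraries above both replicate 1 libraries. Of these 8, edgeR called 1 higher, Scgb1a1 (276, 293, 79.1 and 2098 TPM), which was high in ZsGreen+ replicate 2. The 10 endothelial markers had 0 called and a median of 0.12. Of 8 aCap markers edgeR called 2 higher in replicate 2, Kitl (1.21, edgeR adjusted p = 2.21e-06) and Ednrb (1.02, edgeR adjusted p = 0.00905), with a list median of 0.24. Of 7 lymphatic endothelial markers it called 1 higher, Reln (0.82, edgeR adjusted p = 0.0417), with a list median of 0.40. The 8 gCap markers had 0 called and a median of -0.05. The part of these cells in the replicate difference was not tested.

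**Figure D3:**
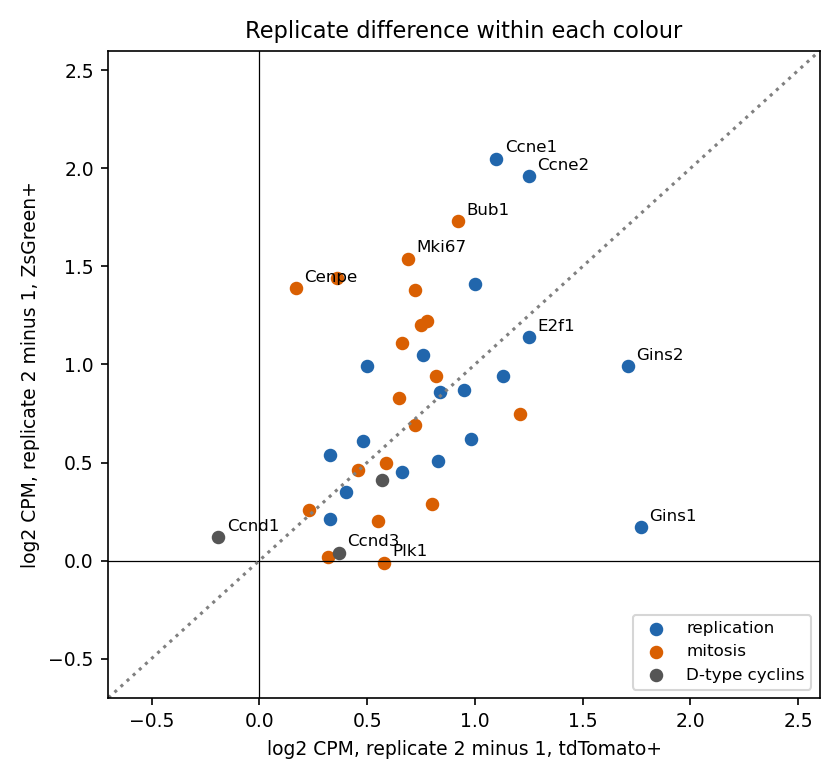
Difference in log2 CPM between replicate 2 and replicate 1 within tdTomato+ cells (x axis) and within ZsGreen+ cells (y axis), 1 point per gene; the dotted line marks equal differences. All replication genes (blue) and nearly all mitosis genes (orange) lie in the upper right quadrant, while Ccnd1 lies at -0.19 and 0.12.

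E2f1, the transcription factor that drives entry to S phase and is its own target, had the smallest p of the 40 between replicate numbers. It stood at 13 and 9.3 TPM in the replicate 1 libraries of tdTomato+ and ZsGreen+ cells and at 29.4 and 24.1 TPM in the replicate 2 libraries. On the log2 scale it rose by 1.19 (SE 0.24, edgeR adjusted p = 6.56e-05), while between colours it was 0.25 (SE 0.49, edgeR adjusted p = 0.951). The 2 numbers were fully apart and the 2 colours were interleaved. E2f1 spans 154559400 to 154569892 of chromosome 2, where it overlaps Necab3.

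Cyclin E, encoded by Ccne1 and Ccne2, activates Cdk2 at the G1/S boundary, and its genes had the largest fitted replicate differences. Ccne1 stood at 3.65, 7.43, 1.5 and 7.35 TPM, with a log2 fold change of 1.55 (SE 0.40, edgeR adjusted p = 0.00446). Ccne2 stood at 1.1, 2.62, 0.81 and 3.73 TPM, with 1.60 (SE 0.48, edgeR adjusted p = 0.0221). In ZsGreen+ cells the replicate 2 to 1 ratio in TPM was 4.9 for Ccne1 and 4.6 for Ccne2, and in tdTomato+ cells 2.04 and 2.38. Ccne2 was the member with the lowest colour ratio within replicate 2 among replication genes, at 0.702. Both genes rest on small counts, 72, 162, 32 and 153 for Ccne1 and 32.83, 82.39, 26.14 and 116.55 for Ccne2. The span of Ccne2 overlaps A630034I12Rik and Ints8.

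The helicase subunits Mcm2 to Mcm7 form a ring of equal parts, and their transcripts were within 4.44-fold of each other in every library. Mcm3 was the highest, at 60.2, 71.2, 48.5 and 66.1 TPM, and Mcm4 the lowest, at 19.6, 26.5, 10.9 and 25.6 TPM. All were higher in replicate 2 in both colours, but by unequal amounts. Mcm5 rose from 24.4 to 44.9 TPM in tdTomato+ and from 19.4 to 41.8 TPM in ZsGreen+ cells, with a log2 fold change of 0.91 (SE 0.21, edgeR adjusted p = 0.000827). Mcm7 (34.9, 66, 26.4 and 47.5 TPM) and Mcm4 also passed, with log2 fold changes of 0.80 (SE 0.21) and 0.75 (SE 0.22) and edgeR adjusted p of 0.00549 and 0.0192.

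Mcm2 (27.6, 41.3, 24.4 and 39.4 TPM), Mcm6 (52.5, 63.1, 35 and 59.9 TPM) and Mcm3 did not pass, with log2 fold changes of 0.55, 0.43 and 0.27. Between colours none of the 6 subunits exceeded 0.34 in log2 fold change. The sum of the 6 was 219, 313, 165 and 280 TPM, so both replicate 2 libraries exceeded both replicate 1 libraries. Mcm5 spans 75109468 to 75128439 of chromosome 8 and Mcm6 128331575 to 128359705 of chromosome 1. Neither span overlaps another gene, whereas that of Mcm7 overlaps 4, Ap4m1 among them.

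Factors of origin licensing and firing were also higher in both replicate 2 libraries than in both replicate 1 libraries, with the order of colours differing between genes. Cdc6 and Cdt1, which load the helicase, stood at 2.69, 5.6, 2.05 and 4.62 TPM and at 11.7, 19.9, 10.2 and 22 TPM. Both passed between replicate numbers, with log2 fold changes of 1.03 (SE 0.31, edgeR adjusted p = 0.0242) and 0.85 (SE 0.26, edgeR adjusted p = 0.0262). Both calls were lost with DESeq2 (adjusted p of 0.157 and 0.131) and with either TPM setting. Cdt1 was the one replication gene lower in tdTomato+ cells within both numbers in CPM (log2 differences of -0.12 and -0.14), whereas in TPM its colour ratio was 1.14 within replicate 1 and 0.904 within replicate 2. Mcm10, which helps to activate the helicase, was scarce at 1.76, 2.8, 0.76 and 1.8 TPM and did not pass (0.89, SE 0.45, edgeR adjusted p = 0.352).

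Gins1 and Gins2 encode 2 subunits of the GINS complex, which joins the helicase to the polymerase. Gins2 stood at 12.2, 37.7, 9.17 and 21.7 TPM and passed between replicate numbers, with a log2 fold change of 1.36 (SE 0.32, edgeR adjusted p = 0.000886). Gins1 stood at 3.01, 9.65, 5.23 and 6.96 TPM and did not (0.95, SE 0.47, edgeR adjusted p = 0.332). In TPM Gins1 was the one replication gene lowest in tdTomato+ replicate 1, with a colour ratio in TPM of 0.576 within replicate 1 and 1.39 within replicate 2. It rests on 30, 107, 56 and 73 estimated counts, the smallest of which is tdTomato+ replicate 1. The span of Gins1 overlaps Gm20550 and that of Gins2 overlaps Gse1, and Gins2 has a count that is not whole.

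Nucleotide supply and the polymerase clamp made up the rest of the replication group. Ribonucleotide reductase pairs a large subunit, Rrm1, with a small one, Rrm2, that is made in S phase. Rrm2 stood at 14.3, 27.3, 5.71 and 17.9 TPM and Rrm1 at 19.4, 32.8, 17.4 and 29.2 TPM. Both passed between replicate numbers, Rrm2 with a log2 fold change of 1.20 (SE 0.26, edgeR adjusted p = 0.000361) and Rrm1 with 0.67 (SE 0.21, edgeR adjusted p = 0.0331). Rrm2 also had the largest colour difference of the replication genes, 0.73 (SE 0.50, edgeR adjusted p = 0.799), against 0.05 for Rrm1. Thymidylate synthase, Tyms, stood at 18.7, 24, 13.2 and 19.6 TPM and Pcna at 107, 141, 77.2 and 140 TPM, and neither passed in either comparison by edgeR (log2 fold changes of 0.38 and 0.55 between numbers), while Pcna passed between numbers on log2(TPM + 1) with limma (0.63, adjusted p = 0.0131).

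**Figure D4:**
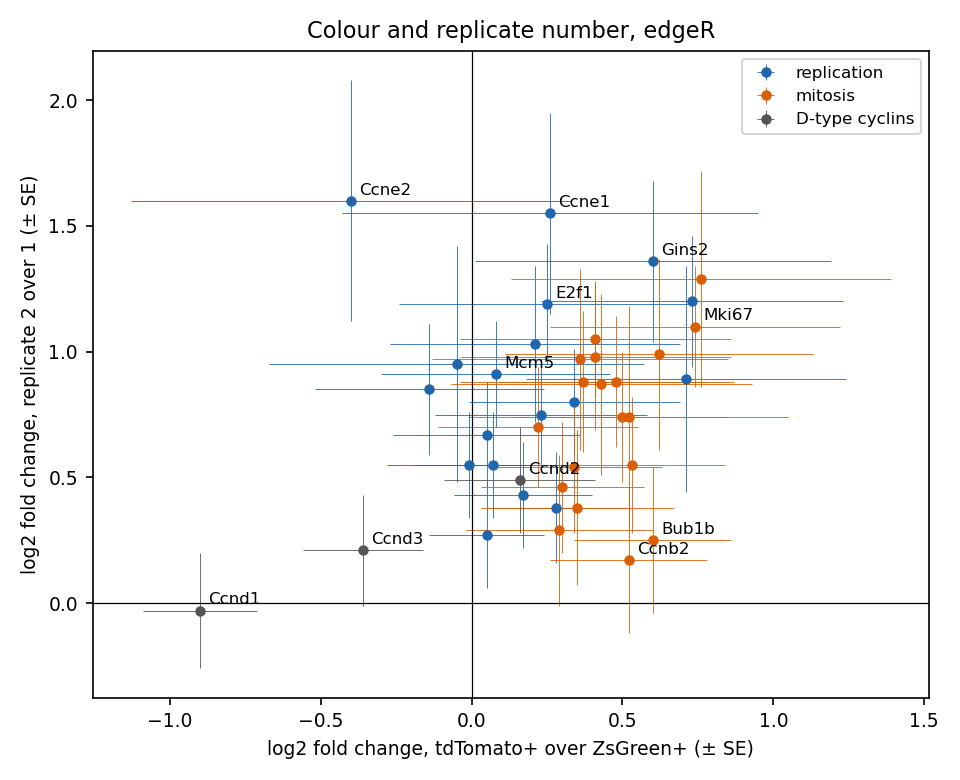
Fitted log2 fold change between colours (x axis) against that between replicate numbers (y axis) for the 40 genes, with standard errors from edgeR as bars. Mitosis genes (orange) all lie right of 0 on the x axis, replication genes (blue) reach highest on the y axis with Ccne2 at 1.60, and Ccnd1 stands apart at -0.90 and -0.03.

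In the mitosis group the 5 genes that passed between replicate numbers were Mki67, Top2a, Aurkb, Ccna2 and Tpx2. Top2a, the topoisomerase that untangles sister chromatids, stood at 10.3, 16.1, 4.6 and 14.1 TPM, with a log2 fold change of 1.05 (SE 0.23, edgeR adjusted p = 0.000428). Mki67 had 1.10 (SE 0.24, edgeR adjusted p = 0.000317). Aurkb, the kinase of the chromosomal passenger complex, stood at 9.35, 20.5, 7.02 and 14 TPM, Ccna2, the cyclin of S phase and G2, at 8.53, 14.3, 4.68 and 10.6 TPM, and Tpx2, a spindle assembly factor, at 6.65, 10.7, 3.64 and 9.36 TPM. Their log2 fold changes were 0.98, 0.88 and 0.88, with edgeR adjusted p of 0.016, 0.0227 and 0.0344.

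Cdk1, the mitotic kinase, stood at 9.19, 14.4, 6.49 and 12.3 TPM and did not pass (0.70, SE 0.24, edgeR adjusted p = 0.0691). Ccnb1 (7.28, 10.1, 5.3 and 7.18 TPM), Ccnb2, Bub1b and Plk1 had the smallest replicate differences of the group, with log2 fold changes of 0.38, 0.17, 0.25 and 0.29. Ube2c, the ubiquitin-conjugating enzyme of the anaphase-promoting complex, stood at 41.7, 54.3, 27.1 and 44.4 TPM, its activator Cdc20 at 19, 28.2, 9.96 and 21 TPM, and Birc5, survivin, at 32.1, 54.7, 22.3 and 33.2 TPM.

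The motor Kif11, which separates spindle poles, stood at 1.92, 3.14, 0.82 and 2.27 TPM and Cenpf, a kinetochore protein, at 0.89, 1.42, 0.46 and 1.26 TPM. Prc1, which bundles the central spindle, was higher at 10.9, 15.3, 7.1 and 11.7 TPM. None of these passed in either comparison. All 3 were lowest in ZsGreen+ replicate 1, as were 18 of 19 mitosis genes and 13 of 18 replication genes in CPM, against 29.7% of all genes tested. Highest in tdTomato+ replicate 2 were 19 of 19 mitosis genes and 16 of 18 replication genes, against 19.7%.

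Other genes of the pathway, in 6 lists of 144 genes of which 143 were tested, gave 0 calls between colours by edgeR, DESeq2 and limma-voom, with 4 at an unadjusted p under 0.05 by edgeR, against 8.77% of all genes. Between replicate numbers edgeR called 28 of 143 higher and 1 lower, against 2.5% and 2.75% of all genes, DESeq2 11 and 1, and with number alone in the model edgeR called 0 (45 at an unadjusted p under 0.05). Of 37 further origin and replisome genes 7 were higher in replicate 2. They include Lig1, the ligase that seals Okazaki fragments (15.5, 31.1, 12.8 and 28.5 TPM; log2 fold change 1.00, SE 0.22, edgeR adjusted p = 0.000525), Cdc45, which completes the active helicase (1.24, SE 0.31), and Pole, a leading-strand polymerase (1.35, SE 0.35). Gins4 and Rpa3 of the same list had log2 fold changes of -0.08 (SE 0.24) and 0.00 (SE 0.26). Of 21 S phase, nucleotide and chromatin assembly genes 9 were higher, among them Ung, a uracil glycosylase (1.35, SE 0.33), Uhrf1, which guides maintenance methylation (0.95, SE 0.23), and thymidine kinase, Tk1 (1.02, SE 0.26).

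Of 35 further mitotic kinase, spindle and kinetochore genes 5 were higher in replicate 2, among them Pbk, a mitotic kinase (1.48, SE 0.32), and Ndc80 of the outer kinetochore (1.66, SE 0.42). Of 12 condensin, securin and cohesion genes 3 were, including Ncapg, a condensin subunit (1.73, SE 0.41). Of 32 transcription and CDK regulators 4 were, led by Wee1, the kinase that holds Cdk1 inactive, at 9.12, 16.9, 3.86 and 19.2 TPM (1.5 on the log2 scale, SE 0.26, edgeR adjusted p = 1.08e-06). Foxm1, the activator of mitotic genes, had 0.36 (SE 0.28) between numbers and 0.67 (SE 0.28, edgeR adjusted p = 0.571) between colours. The colour median was highest, at 0.45, for the kinase, spindle and kinetochore list, with 9 of 35 genes above ZsGreen+ without overlap in CPM, against 19.9% of all genes.

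Among the 7 CDK inhibitors, of which 6 were tested, 1 was lower in replicate 2. Cdkn1a, which encodes p21 and restrains CDKs under p53, stood at 497, 298, 607 and 362 TPM, thus opposite in order to the replication genes, with a log2 fold change of -0.83 (SE 0.23, edgeR adjusted p = 0.0116). Cdkn2b, p15, had the largest colour difference of that list, at 5.5, 2.82, 7.74 and 11.3 TPM (-1.35, edgeR adjusted p = 0.391).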

How the data were processed

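Per the labels' protocols, RNA of mouse lung endothelial cells was amplified over the whole transcriptome before library preparation, and no molecular identifiers are named. The 40 genes and all lists were chosen with earlier results of these data known. The submitters' processing notes name RSEM 1.3.1 and DESeq2 1.4.5 with the builds mm10 and GRCm38, without their roles. Per the file headers the authors deposited read counts, which are estimated counts not whole for 16.2% to 17.9% of genes, normalized counts (a signal), FPKM and TPM. Of the 40 genes 13 have a count that is not whole, and 15 overlap another gene in RefSeq. Normalized counts and FPKM were not used in tests.

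Estimated counts were rounded and tested with edgeR 4.0.16 (R 4.3.3): quasi-likelihood F-tests, two-sided, TMM, filterByExpr with a minimum count of 10, and Benjamini-Hochberg adjustment over 13177 genes, called under 0.05. The colour model held colour only; the replicate model held colour and number. The common biological coefficient of variation was 26.1% and 18% in these models. With 2 libraries per group no permutation test is informative. The tests were first tested on simulated data. Alternatives were RLE and upper quartile factors, other filters, DESeq2 1.42.0, limma-voom (limma 3.58.1), limma on log2 of TPM plus 1 or 0.1 for genes at 1 TPM or more in 2 libraries, a replicate block, and leaving out each library. All 40 genes are described; from each of 6 pathway lists up to 3 genes with the smallest p in each comparison and a mean of at least 1 CPM could be named. Gene spans come from RefSeq GRCm38.p6. Marker lists of 14 cell types were summed in TPM.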

Additional observations from a re-analysis of the deposited data

How the results depend on the processing

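Of 360 colour values of the 40 genes under other settings 351 kept their direction and side of the threshold, and of 360 replicate values 309 did. Between colours 40 genes of all were called, and 128 with no filter, 330 with DESeq2 and 22 with TPM plus 0.1; leaving out 1 library gave 4 (without tdTomato+ replicate 2) to 304 (without ZsGreen+ replicate 1). With the replicate block 934 were (679 higher, 255 lower), and of the 40 genes 2 were higher (Mki67 0.88, edgeR adjusted p = 0.0056; Rrm2 0.80, edgeR adjusted p = 0.0337) and 1 lower (Ccnd1 -0.91, edgeR adjusted p = 0.00307), with 1 higher and 1 lower among the 143 pathway genes. Same-numbered libraries deviated together (correlation 0.469 over genes). There are 2 such pairs, and the labels give them a shared number without saying whether they share anything else. Ccnd1 was the 1 gene called lower with DESeq2 and without ZsGreen+ replicate 1, the range without 1 library being 0 to 1. The number above 0 was 18 to 38 without 1 library, the mitosis median 0.07 to 0.97 and the replication median -0.37 to 0.63. Mcm2 turned to 0.03 with upper quartile factors and 0.12 with either TPM setting, and Cdt1 to 0.02 with both.

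Without 1 library, 39 of 160 colour values reversed. Their ranges were -0.20 to 0.41 for Pcna, -0.36 to 0.28 for Mcm2, -0.11 to 0.20 for Mcm3, -0.18 to 0.81 for Mcm4, -0.45 to 0.58 for Mcm5, -0.08 to 0.46 for Mcm6, -0.22 to 0.74 for Mcm7, -0.44 to 0.76 for Cdc6, -0.60 to 0.36 for Cdt1, -1.17 to 0.57 for Gins1, -0.48 to 1.21 for Gins2, -0.41 to 0.40 for Rrm1, -0.49 to 0.93 for E2f1, -0.43 to 1.62 for Ccne1 and -1.14 to 0.89 for Ccne2. Among the others they were -0.12 to 1.26 for Top2a, -0.17 to 0.60 for Cdk1, -0.11 to 1.32 for Aurka, -0.30 to 0.89 for Aurkb, -0.00 to 0.55 for Plk1, -0.00 to 1.38 for Cenpe, -0.12 to 1.08 for Cenpf, -0.08 to 1.03 for Tpx2 and -0.13 to 0.41 for Ccnd2.

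Between replicate numbers 691 genes of all were called, 350 with DESeq2, 17 with number alone and 0 to 451 without 1 library. Of the 40 genes 16 were, 7 with DESeq2, 8 with TPM plus 1, 7 with TPM plus 0.1 (Pcna gained in both TPM settings, and Mcm4, Cdc6, Cdt1, Rrm1, Mki67, Top2a, Ccna2, Aurkb and Tpx2 lost in both), 0 with number alone and 0 to 4 without 1 library (4 without ZsGreen+ replicate 2, 0 without any other). Ccnd1 turned to 0.05 with both TPM settings and 0.01 with number alone. Reversed ranges without 1 library were -0.61 to 0.46 for Ccnd1, -0.17 to 0.49 for Ccnb2, -0.08 to 0.59 for Bub1b and -0.06 to 0.47 for Ccnd3. The log2 colour difference of summed D-type cyclins, -0.42 in TPM, was -0.61 in CPM with TMM, -0.62 with RLE and -0.65 without Ccnd3. The cause of these changes was not tested. A lone library is assumed to vary like the other groups. Counts of 30 to 107 limit the precision for Gins1, and 25 to 145 for Bub1. Similarly low counts limit it for Ccne1 (32 to 162), Ccne2 (26.14 to 116.55), Mcm10 (30 to 115) and Cenpe (30 to 100).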
